A study of Homo sapiens with 12 samples.

Results

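The regions described here are the open chromatin regions on the long arm of human chromosome 1, as mapped by ATAC-seq in the cell lines ARPE-19 and H7. The peaks of all 6 libraries were merged wherever they overlapped by at least 1 base, and every merged region on chromosome 1 that starts at or beyond 145 Mb on hg19 was taken. This gave 3728 of the 84664 merged regions of the series. They were set beside the 3744 regions on the same chromosome below 121 Mb, called the short arm here, and the 74267 regions on the other autosomes. The 31 regions between the arms belong to neither. The last region left out ran from 144995672 to 144996022 and had a peak of 8 summit reads in 1 ARPE-19 library. The first region taken ran from 145009417 to 145009676 and had a peak of 13 summit reads in 1 ARPE-19 library. The regions were chosen by the peak calls and by position, so shares of peaks and counts of regions by line are given as descriptions, with no test.

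ARPE-19 is a line of retinal pigment epithelial cells that arose spontaneously in culture, and it was grown in DMEM with serum. H7 is a line of human embryonic stem cells, and it was grown in mTeSR Plus. Each line had 3 libraries of 500000 cells, with no treatment named in the labels, and each line stands for its cell type alone. The labels speak of triplicates without saying whether the libraries came from separate cultures, so a p-value here speaks of the spread among these libraries alone, which may be technical. The series also holds 6 samples of 4C, a method that maps DNA contacts of a chosen site, which were not analysed here.

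In ATAC-seq the Tn5 transposase inserts adapters into open chromatin, and a peak is a place where inserted ends pile up over the background around it. The number of reads at a place depends on how open it is, and also on how many copies of that DNA the cells carry. The long arm of chromosome 1 is one of the segments that human pluripotent stem cells gain repeatedly in long culture. Among its genes is MDM4, which encodes an inhibitor of p53. Copy number was not measured here, and neither the sequence nor the gene models of hg19 were used. No region was therefore tied to a gene, no sequence is shown, and the lines could not be checked against marker genes.

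The ARPE-19 lists held 40110 to 48460 peaks and the H7 lists 8622 to 15351. Each library's genome-wide background, recovered from its list, serves as relative depth. It was 0.425 to 0.483 expected reads per position in ARPE-19 and 0.592 to 0.653 in H7. The H7 lists were thus shorter although their relative depth was higher. In regions called in all 6 libraries, H7 summits over this background were lower on every autosome, with median log2 differences of -1.19 to -0.68. The fewest summit reads of a called nuclear peak were 4 in ARPE-19 and 5 to 6 in H7. A missing peak means only that a region was not called in that list. With 3 libraries against 3, the exact two-sided permutation test over libraries cannot give a p below 0.1.

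H7 had a larger part of its peaks on the long arm than ARPE-19. The share of autosomal peaks on the arm was 4.41%, 4.38% and 4.47% for replicates 1, 2 and 3 of ARPE-19. The H7 libraries stood at 5.35%, 5.29% and 5.61%. Every H7 library lay above every ARPE-19 library. The means were 4.42% ± 0.050 and 5.42% ± 0.17 (SD, n = 3), a log2 difference of 0.29. On the short arm the order was the other way, with 4.78%, 4.60% and 4.67% in ARPE-19 and 4.19%, 4.13% and 4.59% in H7. For every peak on the short arm there were 0.921, 0.951 and 0.957 peaks on the long arm in ARPE-19. In H7 there were 1.28, 1.28 and 1.22. The long arm thus held fewer peaks than the short arm in all 3 ARPE-19 libraries and more in all 3 H7 libraries. Of the 21 other autosomes, chromosome 13 came closest to the long arm with a log2 difference of 0.25, and chromosome 22 lay farthest below with -1.19.

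**Figure D1:**
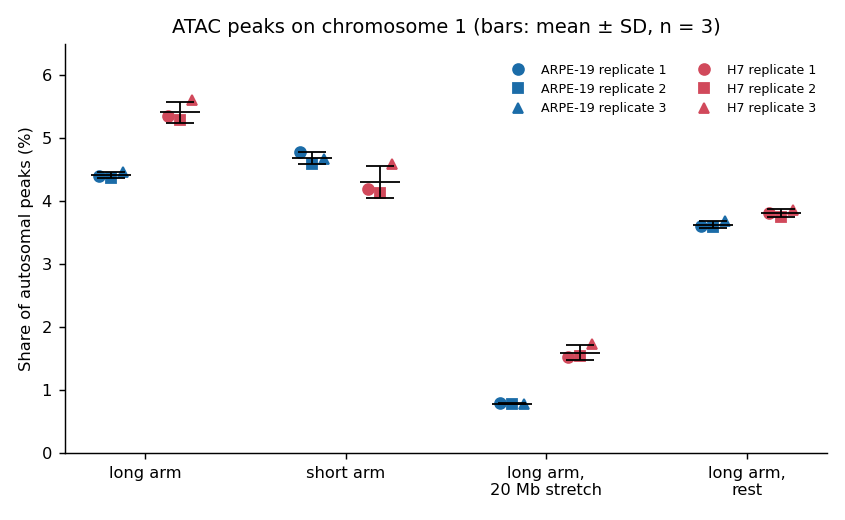
Share of autosomal ATAC peaks (%, vertical axis) on the long arm, the short arm, the long arm from 195 to 215 Mb and the rest of the long arm; each point is 1 library, and bars give the mean ± SD of 3 libraries per line. H7 libraries sit at 5.29% to 5.61% on the long arm, above the ARPE-19 libraries at 4.38% to 4.47%, and most of the gap lies in the stretch of 20 Mb.

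Most of this difference came from a stretch of 20 Mb, from 195 to 215 Mb. It is the longest run of adjacent windows of 5 Mb on the arm in which the local background of the peaks was at least 0.3 higher in H7 on the log2 scale. This rule was set after the values had been seen, so the values inside the stretch are descriptions, with no test. It held 342, 306 and 367 peaks in ARPE-19 and 225, 202 and 144 in H7. As a share of autosomal peaks that was 0.795%, 0.787% and 0.782% in ARPE-19 against 1.53%, 1.54% and 1.74% in H7, a log2 difference of 1.02. In the rest of the long arm lay 3.63% ± 0.054 of the ARPE-19 peaks and 3.81% ± 0.061 of the H7 peaks (SD, n = 3). That is a log2 difference of 0.071. With the stretch removed from every list, the log2 difference of the arm's share was 0.083. When every library was reduced to its 8622 strongest peaks, the stretch held 48, 53 and 47 peaks in ARPE-19 and 144 in each H7 library. At that equal number the rest of the arm held 351, 339 and 344 peaks in ARPE-19 and 344, 314 and 321 in H7, so the 2 lines overlapped there.

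Regions particular to a line by the peak calls were divided in the same way. Regions with peaks in 3 of 3 ARPE-19 and 0 of 3 H7 libraries, here ARPE-19-only, numbered 927 on the long arm, or 24.9% of its regions, where 26% of all merged regions of the series were of this class. H7-only regions, by the mirror definition, came to 87, or 2.33% against 1.82% in the series. The ratio was 10.7 ARPE-19-only regions for each H7-only region on the long arm, 19.5 on the short arm (918 and 47) and 14.6 on the other autosomes (19525 and 1335). Single autosomes ran from 10.2 on chromosome 13, with 72 H7-only regions among 2942, to 265 on chromosome 19, with 1 H7-only region. Chromosomes 2, 3 and 4 had 11.4, 11.8 and 11.9, so the ratio of the whole arm was not particular to it. Inside the stretch 149 regions were ARPE-19-only and 36 were H7-only among 792, which are 18.8% and 4.55%, a ratio of 4.14. Outside it there were 778 and 51 among 2936, which are 26.5% and 1.74%, a ratio of 15.3. The stretch thus held 36 of the 87 H7-only regions of the arm and 149 of its 927 ARPE-19-only regions, with 792 of its 3728 regions. H7 replicate 3, the shortest list, decides how many H7-only regions there are: without it there were 164 on the arm, 56 of them in the stretch, and the ratio was 5.78 on the arm and 2.71 in the stretch.

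At 8622 peaks per library, the stretch had more H7-only than ARPE-19-only regions, 48 against 21. The rest of the arm then had 59 H7-only and 160 ARPE-19-only regions, a ratio of 2.71, and the other autosomes had 1586 and 3598, a ratio of 2.27. At -log10 q 5 or more, the stretch had 20 H7-only and 102 ARPE-19-only regions, a ratio of 5.1. The other autosomes had a ratio of 27.4 at that threshold and the rest of the arm 45.5, from 13 H7-only and 591 ARPE-19-only regions. The ratio was lower in the stretch than in the rest of the arm in each of these settings.

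**Figure D2:**
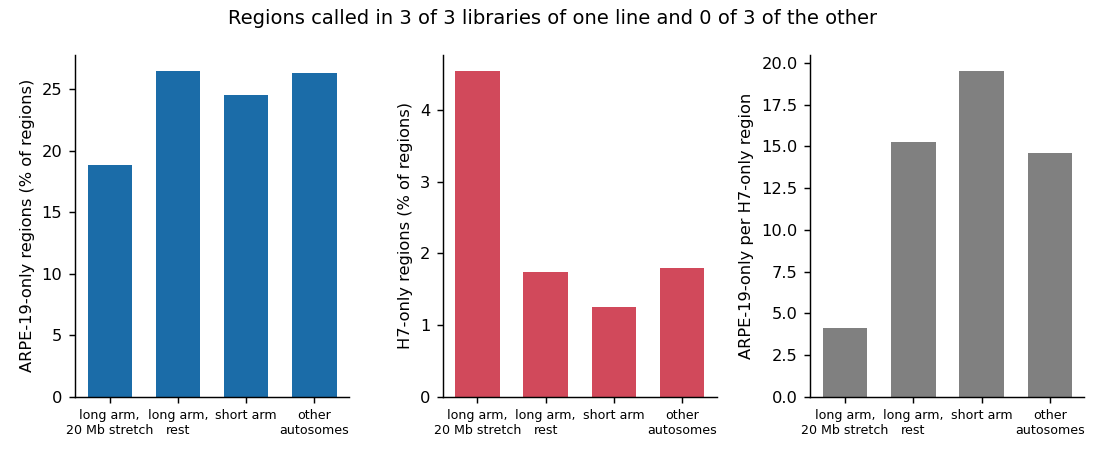
Percent of merged regions that were ARPE-19-only (left), percent that were H7-only (middle) and the number of ARPE-19-only regions per H7-only region (right), for the stretch of 20 Mb, the rest of the long arm, the short arm and the other autosomes. The stretch has 4.55% H7-only regions and a ratio of 4.14, against 1.74% and 15.3 in the rest of the arm.

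The background around the peaks was no direct part of the rule that chose the regions. It did enter the peak calls on which that rule rests, so the test below is not independent of the choice. For each peak the caller compared the summit with a local background, an expected number of reads from the surroundings of that peak. Here it is given relative to the median peak of the same library on the autosomes other than chromosome 1, which stands at 1. The median over the long arm was 1.04, 1.02 and 1.05 in ARPE-19 and 1.17, 1.14 and 1.16 in H7. All 3 H7 libraries lay above all 3 ARPE-19 libraries, with a log2 difference of 0.16 (exact two-sided permutation test, p = 0.1, n = 3 per line, the smallest p that this test allows). For the short arm the 3 ARPE-19 libraries averaged 1.05 ± 0.013 and the 3 H7 libraries 1.05 ± 0.021 (SD). Among the 21 other autosomes the difference ran from -0.097 on chromosome 16 to 0.14 on chromosome 15, so that the long arm had the highest value by a small margin.

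The stretch was picked for its background, so its values only describe what was picked. Between 195 and 215 Mb the relative background was 0.995, 0.951 and 0.990 in ARPE-19 and 1.5, 1.49 and 1.5 in H7. The means were 0.979 ± 0.024 and 1.5 ± 0.0066 (SD, n = 3), so that H7 was 1.53-fold higher. Peaks of ARPE-19 in the stretch were thus close to the median peak of other autosomes, and those of H7 were not. In the rest of the arm the means were 1.06 ± 0.012 in ARPE-19 and 1.04 ± 0.018 in H7. With these windows taken out, the log2 difference of the arm was -0.020, a loss that the way they were picked brings about. The background of a peak is seen only where a peak was called, and reads from the peak may count toward it. With only the peaks under the median -log10 q of their list, a choice made after the values had been seen, the log2 difference in the stretch was 0.52, against 0.61 with all peaks.

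**Figure D3:**
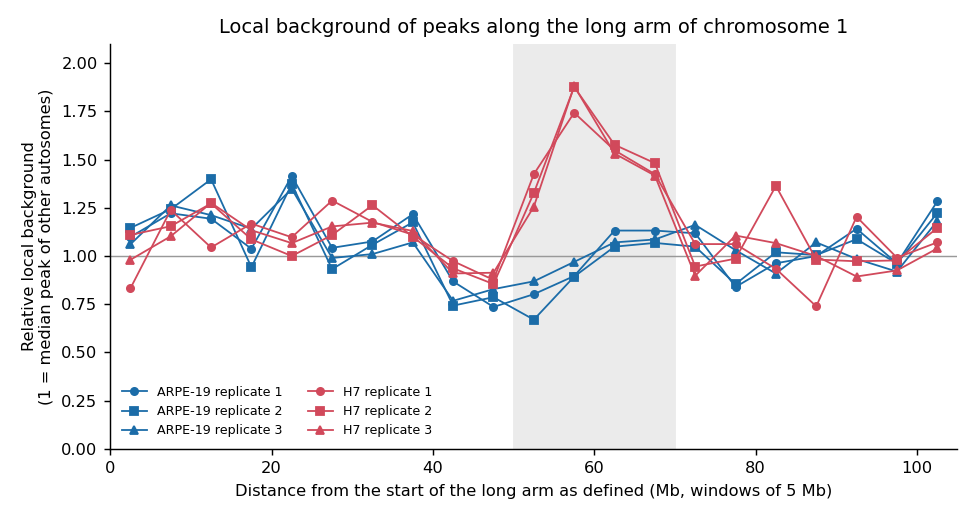
Relative local background of peaks (vertical axis, median per library, 1 = median peak of other autosomes) in windows of 5 Mb against the distance from the start of the arm in Mb; each line is 1 library, and the shaded part from 50 to 70 Mb is the stretch of 20 Mb. The 3 H7 lines rise together there, to 1.74 to 1.88 in the highest window, while the 3 ARPE-19 lines stay between 0.67 and 1.13.

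In windows of 5 Mb, the H7 background rose into the stretch and fell after it. From 190 to 195 Mb it was 0.876, 0.855 and 0.913 in the H7 libraries, all above the 0.736, 0.786 and 0.828 of ARPE-19, with a log2 difference of 0.17. From 195 to 200 Mb the H7 libraries had 1.42, 1.33 and 1.26, and ARPE-19 had 0.802, 0.670 and 0.869. The highest H7 values lay from 200 to 205 Mb, with 1.74, 1.88 and 1.88 against 0.896, 0.893 and 0.970. From 205 to 210 Mb the mean was 1.55 ± 0.023 in H7 and 1.08 ± 0.043 in ARPE-19, and from 210 to 215 Mb it was 1.44 ± 0.035 and 1.10 ± 0.033 (SD, n = 3). From 215 to 220 Mb the H7 libraries were back at 1.06, 0.945 and 0.898, below the ARPE-19 values of 1.12, 1.05 and 1.16. The 2 lines did not overlap in any of the 4 windows of the stretch, which were picked for this difference. In windows of 1 Mb they were apart in 15 of 20 and overlapped in 5, and they were already apart in the window before the stretch, from 194 to 195 Mb. In windows of 1 Mb, the mean of the H7 libraries was lowest within the stretch from 206 to 207 Mb, at 1.04, where they had only 1, 5 and 3 peaks.

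There were 379 windows of 5 Mb on the autosomes with at least 10 peaks in every library. The log2 difference of their background had a median of 0.036 and an SD of 0.23. A difference of 0.5 or more was found in 7 of them, and 3 of these lie in the stretch. The remaining window of the stretch, from 210 to 215 Mb, had 0.40. Windows on chromosomes 2, 7, 11 and 13 were among those with higher values than that. The window from 200 to 205 Mb had the largest difference of all, 1.00, and the window from 195 to 200 Mb ranked 3 with 0.78. Rank 2 went to a window on chromosome 15 from 40 to 45 Mb with 0.89. There the H7 mean was 1.13 and the ARPE-19 mean 0.609. The ARPE-19 mean was also below 1 from 195 to 200 Mb, at 0.780, with 1.34 in H7, so low values in ARPE-19 were part of the gap in both windows. In the level of H7 alone, the 4 windows of the stretch ranked 1, 2, 3 and 5 of 379, with a window on chromosome 19 from 5 to 10 Mb, at 1.44, in the fourth place. The H7 libraries lay all above the ARPE-19 libraries in 8 of the 19 windows of the long arm that could be used, where this held for 28.8% of all windows. By that count alone the arm was not far from the genome, and it was the size of the difference in 3 of these windows that stood out.

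**Figure D4:**
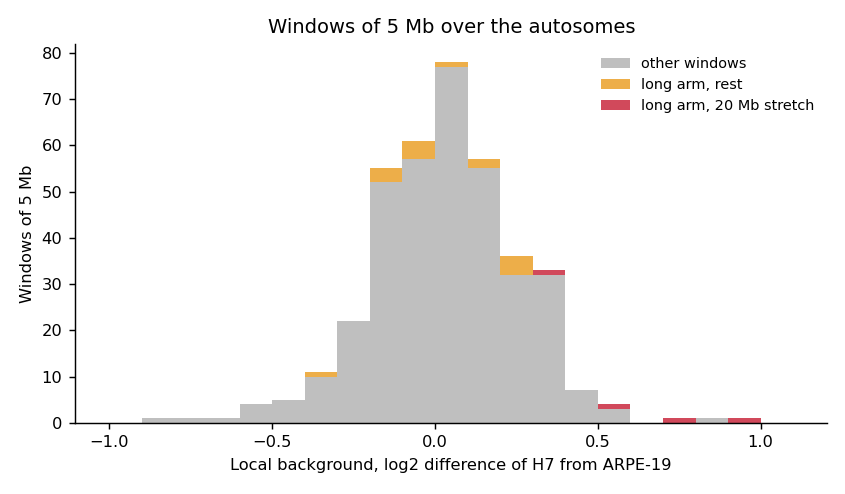
Number of windows of 5 Mb (vertical axis) by the log2 difference in local background, H7 minus ARPE-19 (horizontal axis), over 379 windows of the autosomes, with the windows of the long arm in colour. The 4 windows of the stretch lie at 0.40, 0.52, 0.78 and 1.00, on the right of a distribution with a median of 0.036.

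Regions open in both lines allow the same places to be compared. A total of 89 regions on the long arm had a peak in all 6 libraries, or 2.39% of its regions, where 1.82% of all merged regions had one. The summit reads of each were divided by the genome-wide background of the library. In these shared regions H7 summits were generally lower than ARPE-19 summits, with a median log2 difference of -0.90 over 1337 such regions of the other autosomes and -1.02 over 67 of the short arm. In the 70 shared regions of the long arm outside the stretch it was -0.85. In the 19 inside the stretch it was -0.17, with quartiles of -0.67 and 0.18. H7 was higher in 9 of these 19 regions and in 8 of the 70 outside, where 8.38% of the shared regions of other autosomes had a higher H7 value.

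The values by library come from the same shared regions and are no separate support. The stretch was picked for its background, toward which reads from peaks may count, so summits there are not independent of that choice. Inside the stretch the median shared summit stood at 33.1, 32.8 and 44.7 times the genome-wide background in ARPE-19 and at 32.2, 33.8 and 30.0 times in H7. Outside it the values were 46.6, 43.7 and 61.2 times in ARPE-19 and 25.3, 27.0 and 23.7 times in H7. The lines overlapped inside the stretch and were apart outside it. Over the whole arm, the median shared summit relative to that of other autosomes was 1.05, 0.944 and 1.14 in ARPE-19 and 1.13, 1.14 and 1.14 in H7, which overlapped (log2 difference 0.13, exact two-sided permutation p = 0.4, n = 3 per line). This depended on the setting. The lines were apart, at the smallest p of 0.1 by the same exact test, with the short arm as reference (0.29), in equal lists of 8622 peaks (0.19) and at -log10 q 5 or more (0.18). Leaving out 1 library moved the difference between 0.055, without ARPE-19 replicate 2, and 0.23, without ARPE-19 replicate 3.

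The wider set of 371 regions with a peak in at least 1 library of each line gave like values. In the 85 of these inside the stretch, the median log2 difference was -0.019 for summit reads and 0.48 for the local background. It was -0.11 for the authors' fold enrichment, taken here as summit reads plus 1 over local background plus 1. In the 286 outside it was -0.71, -0.23 and -0.31. On the other autosomes, with 6217 such regions, it was -0.69, -0.19 and -0.33. Summit and local background were thus shifted by like amounts in the stretch, and the fold of one over the other was shifted less. Whether the number of copies of this DNA in H7 has a part in these values was not tested.

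**Figure D5:**
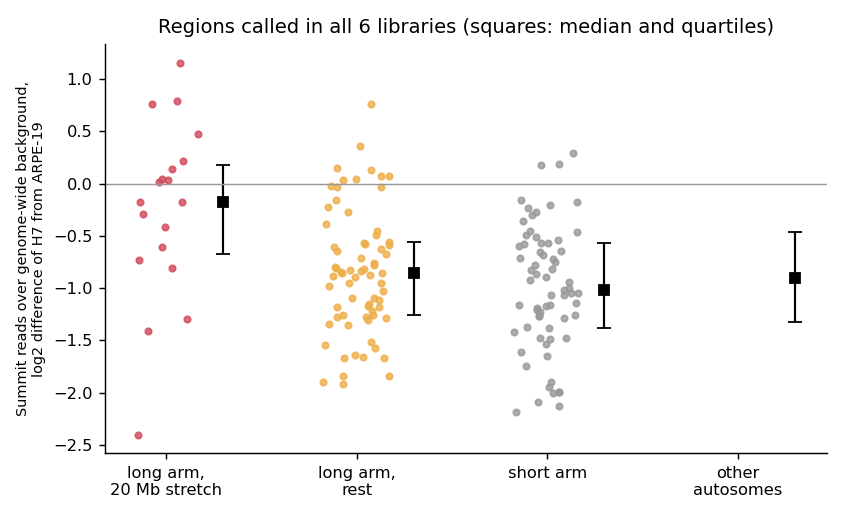
Log2 difference of H7 from ARPE-19 in summit reads over the genome-wide background (vertical axis) for regions called in all 6 libraries; points are regions, squares with bars give the median and quartiles, and single points are not drawn for the 1337 regions of other autosomes. The median is -0.17 in the stretch of 20 Mb and -0.85 in the rest of the long arm.

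Of the 6 H7-only regions of the long arm with the highest rank, 5 lay in the stretch. They were ranked by the mean percentile of -log10 q within the lists, as were the other regions named here. The first ran from 213843593 to 213844152, with 29, 29 and 27 summit reads in H7 replicates 1, 2 and 3 over a local background of 1.80 to 1.97 reads. The second ran from 196961012 to 196961675, with 28, 31 and 22 summit reads over 1.22 to 1.70. The third, from 200017347 to 200017796, had 33, 38 and 24 summit reads, and its 3 summits lay within 7 bases of each other. Next came the region from 207205849 to 207206323 (28, 23 and 24 summit reads). The fifth began at 221466089, ended at 221466529 and had 22, 15 and 23. The latter is the one outside the stretch, and its local background was lower, 0.897 to 1.17 reads. The sixth ran from 196692404 to 196692885 with 20 to 22 summit reads. No ARPE-19 library had a peak in any of them, by definition.

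None of the 6 ARPE-19-only regions with the highest rank lay in the stretch. The strongest ran from 165085778 to 165086472, with 104, 120 and 143 summit reads in ARPE-19 replicates 1, 2 and 3 and summits within 3 bases of each other. It was followed by a narrow region of 362 bases from 181224686 to 181225047, with 71, 62 and 84 summit reads. The third, from 176625322 to 176626111, had 62, 65 and 72. The fourth, from 187996734 to 187997277, had 51, 64 and 68. The fifth ran from 216218528 to 216219160 and had 60, 51 and 57. The sixth ran from 177895923 to 177896650 and had 54, 50 and 55. Their authors' fold enrichments, 15.2 to 23.3 over these 6 regions, were above the 7.59 to 13.7 of the 6 H7-only regions. Folds of different lists do not share a scale, since each is set by the background of its own library.

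Among the regions called in all 6 libraries, the strongest on the arm ran from 156186276 to 156186590. It had 166, 130 and 139 summit reads in ARPE-19 and 80, 63 and 63 in H7, and the summits of all libraries fell between 156186403 and 156186420. Over the genome-wide background this was a log2 difference of -1.54. The region from 184723809 to 184724607 had 21, 29 and 32 summit reads in ARPE-19 and 47, 35 and 36 in H7, a log2 difference of 0.074, although it lies outside the stretch. The region from 214776052 to 214776623 lies inside the stretch near its end and had 32, 33 and 36 summit reads in ARPE-19 and 16, 21 and 20 in H7, a difference of -1.29. Neither of these regions followed the median of the stretch or of the rest of the arm in which it lay. The others named by the rule ran from 241682869 to 241683360, from 170043547 to 170044091 and from 169455043 to 169455615, with differences of -0.56, -0.82 and -0.78.

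H7 peaks were spread unevenly over the rest of the arm as well. The ratio of the H7 share of peaks to the ARPE-19 share was 3.45 from 195 to 200 Mb, the highest of the 379 windows of the autosomes. There 94, 65 and 40 H7 peaks stood against 64, 67 and 69 ARPE-19 peaks, so that H7 replicate 1 had the longer list in this window although its list over the genome was shorter. In the other windows of the stretch the ratio was 1.57 to 1.90. Outside, it was 1.49 from 215 to 220 Mb, 1.81 from 220 to 225 Mb and 1.56 from 185 to 190 Mb. The background difference in these 3 windows was -0.20, 0.22 and 0.25, and from 185 to 190 Mb all 3 H7 libraries lay above all 3 ARPE-19 libraries.

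At the near end of the arm the ratio was low, 0.33 from 145 to 150 Mb and 0.58 from 150 to 155 Mb. The first of these windows had 4, 9 and 4 H7 peaks and 60, 52 and 74 ARPE-19 peaks. It held 34 ARPE-19-only regions and 0 H7-only regions among 86, and the next had 46 and 0 among 166. A low ratio was also found from 230 to 235 Mb, with 0.56. The H7 share lay above that of all ARPE-19 libraries in 9 of the 19 usable windows, where 40.6% of all windows did so, and below in 2, where 19.3% did. The first window and the one from 225 to 230 Mb had under 10 peaks in an H7 library and were not among the 19.

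The regions covered the whole arm, with 6 to 69 in each of 105 windows of 1 Mb and a median of 34. The fullest windows were those from 209 to 210 Mb with 69 regions, from 214 to 215 Mb with 59 and from 178 to 179 Mb with 57. The first of these 3 held 19 ARPE-19-only and 5 H7-only regions, the second 9 and 1, and the third 21 and 2. All 105 windows held an ARPE-19-only region and 46 held an H7-only region, with the most H7-only regions, 6, from 197 to 198 Mb. The median distance between neighbouring regions was 15.8 kb, and the longest empty stretch was 827 kb, from 145728792 to 146556065.

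A peak in both lines was found for 371 of the 3728 regions of the arm and for 7208 of the 84664 of the series. On the arm 1727 regions, or 46.3%, were called in 1 library only, against 46.3% on the other autosomes. A peak in H7 libraries alone, in any number, was found for 929 regions, or 24.9%, where 22.2% of all merged regions were so. The percent was 34.8 in the stretch, 22.2 in the rest of the arm and 53.7 from 195 to 200 Mb. Every H7 library called 198 regions of the arm, of which 56.1% were called by ARPE-19 too, against 54.8% in the series. Every ARPE-19 library called 1166, of which 20.5% were called by H7 too, against 17.3% in the series.

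Peak width did not set the arm apart. The median width on the arm relative to that on other autosomes was 1.01, 1.01 and 0.996 in ARPE-19 and 1.02, 1.01 and 1.04 in H7 (log2 difference 0.026, exact two-sided permutation p = 0.3, n = 3 per line). The median peak was 264 to 275 bases wide in ARPE-19 and 226 to 234 bases in H7. Within the classes, the H7-only regions of the stretch had a median of 14 to 14.5 summit reads per library, against 12 to 13 over the H7-only regions of other autosomes. The ARPE-19-only regions of the stretch had 11 to 14, against 13 to 15. The median percentile of -log10 q of the shared regions of the stretch averaged 92.5 over the H7 lists and 73.1 over the ARPE-19 lists. For those of other autosomes it averaged 82.1 and 82.5.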

How the data were processed

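ATAC-seq peak lists of 6 libraries were used, 1 per library. Per the submitters' processing notes, MACS2 and bedtools were used on hg19. Not given in the sources used here are tool versions, the aligner, read filters and the window of the local background. The deposited lists hold a score (10 times -log10 q), a fold enrichment (a ratio of summit to local background), and -log10 values of p and q for each peak, all set within 1 library by the authors' peak caller. If duplicates or reads of several origins were kept, summit reads and backgrounds would include them.

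Positions are 1-based. For each peak, whole summit reads and the background were found from fold and -log10 p, taking fold as summit reads plus 1 over background plus 1 and p as a Poisson upper tail. They gave back -log10 p as deposited, within 0.001, for 100% of nuclear peaks. The most frequent background was taken as genome-wide. It gives relative depth. Log2 library values were tested with exact two-sided permutations, of which 3 against 3 libraries allow 20. The rule for named regions took, on the arm, the 6 highest by mean within-list percentile of -log10 q in each class, and for windows those of 10 Mb, shown here as windows of 5 Mb after the values were seen, and the 3 of 1 Mb with the most regions. The members, lists and stretch were chosen with earlier results of these data known. Alternatives were other peak sets, other definitions of classes and of the arm's start, another reference, and each library left out. Planned gene lists and motifs were not run, since no genes or sequence of hg19 were used. On simulated data 100% of planted one-line regions were recovered among 3000 places, for H7 against ARPE-19. They were planted apart from each other and with no missing calls, so this checks only the merging and counting, not recovery at the depth of these lists. Tools were scipy 1.17.1, pandas 2.3.3, numpy 2.4.6 and matplotlib 3.10.9 under Python 3.11.15.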

Additional observations from a re-analysis of the deposited data

How the results depend on the processing

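The difference of H7 from ARPE-19 kept its direction in all settings run, for the share of long arm peaks and the ratio of long to short arm peaks. The local background of the stretch did so too, but the stretch was picked for that direction in these same libraries, so this is no support. For the share, the log2 difference became 0.47 with peaks of -log10 q 5 or more, 0.33 with the arm from 150 Mb and 0.083 without the stretch. For the ratio of arms it became 0.60, 0.45 and 0.20 in these settings, and 0.38 with equal lists of 8622 peaks. H7-only regions numbered 33 with peaks of -log10 q 5 or more, 51 without the stretch, 225 with at least 2 of 3 and 0 of 3, and 259 with at most 1 of 3. Leaving out 1 library at a time gave 89 to 164. ARPE-19-only regions numbered 181 in equal lists, which are shorter, and 1405 and 1517 by the 2 looser definitions. Their ratio to H7-only regions was 21 at the stricter threshold, 1.69 in equal lists, 6.24 and 5.86 by the looser definitions, and 5.78 to 13.0 with 1 library left out. Among the settings with 1 library left out, the lowest ratio and the most H7-only regions came without H7 replicate 3. Without the stretch the log2 difference turned to -0.020 for the local background, -0.067 for shared summits and -0.018 for width. For the local background the choice of the stretch brings this about, and for the others the cause was not tested. With 1 library left out, the local background of the arm differed by 0.14 to 0.17 and that of the stretch by 0.59 to 0.63. With equal lists of 8622 peaks the difference of the stretch fell to 0.45, with means of 1.09 in ARPE-19 and 1.49 in H7. With the replicate block (exact sign-flip test, smallest p 0.25) the local background kept 0.16 with p = 0.25, shared summits 0.13 with p = 0.5 and width 0.026 with p = 0.5. Over windows of 5 Mb, deviations of equally numbered libraries correlated at -0.020, -0.0059 and 0.26 in the share of peaks. In the relative background they correlated at 0.093, 0.034 and -0.0047. All were low except the share in replicate 3, so these values do not settle whether the numbers pair the libraries. Settings on the stretch were added after the values had been seen. H7 lists held as few as 4 peaks in a window of 5 Mb, which limits the values there.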

Other observations

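Between the arms of chromosome 1, from 121 to 145 Mb, 31 regions were merged, and 2 of them were called in all 6 libraries. The one from 121484430 to 121485424 had summits of 300 to 749 reads and local backgrounds of 15.4 to 34.9. The other, from 144931939 to 144932746, lay just outside the long arm as defined and had summits of 15 to 26 reads and backgrounds of 1.48 to 3.09.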
